A study of Mus musculus with 6 samples.

Results

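The cells described here are the hematopoietic stem cell (HSC) class within clusters 0 to 2 of mouse bone marrow stem and progenitor cells profiled by droplet single-cell RNA sequencing. They were taken as the cells that the deposited cell table assigns both to the HSC class and to cluster 0, 1 or 2, and each was matched to its library's count matrix by barcode. There were 3007 such cells among 16822 in the table, out of 3152 HSC-class cells and 13820 cells of clusters 0 to 2. PBS replicates 1, 2 and 3 held 1339, 215 and 917 of them. AML replicate 1 held 22 and AML replicate 3 held 514, while the table lists 0 cells of AML replicate 2. Every comparison between groups below rests on 3 PBS and 2 AML libraries.

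The study asked how healthy stem and progenitor cells respond to acute myeloid leukemia (AML) growing in the same marrow. The AML group received 1000000 C1498 cells, a mouse AML line carrying the CD45.2 allele, and the control group received PBS. Recipients in both groups were non-conditioned female C57BL/6J mice carrying CD45.1, 8 to 12 weeks old, and were sacrificed at day 21. Marrow was flushed from both femurs and tibias, depleted of lineage-positive cells and sorted for CD45.1+ Lin- cKit+ Sca1+ (LSK) cells, so that the leukemia itself, which is CD45.2, falls outside the gate. A single transplanted line stands for the disease in every AML recipient. The sources used here do not say whether each library came from 1 mouse, and the spread between libraries may be technical in part. The edgeR p-values for AML against PBS rest on a spread shared across genes. A gene whose own libraries disagree therefore gets no larger p for it.

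HSCs are the rare marrow cells that renew themselves for life and give rise to every blood lineage. They are mostly out of cycle, and they feed multipotent progenitors (MPPs) that divide more often: MPP-2 cells lean to megakaryocytes and red cells, MPP-3 cells to myeloid cells and MPP-4 cells to lymphoid cells. Interferons act on HSCs through receptors that switch on a shared set of interferon-stimulated genes, and acute exposure to type I interferon is known to bring dormant HSCs into cycle for a time.

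Depth was uneven. The cells carried 4696291, 1672090 and 3369613 UMIs (unique molecular identifiers, each standing for 1 captured transcript) in PBS, against 59027 and 2184924 in AML replicates 1 and 3. Their median was 3137, 7284 and 3288 UMIs per cell in the PBS libraries against 2316.5 and 3768.5 in the AML libraries, and 1 UMI in AML replicate 1 is worth 16.9 CPM, the UMIs of a gene per 1000000 UMIs of the library. AML replicate 1 stood apart: over 2371 genes its log2 CPM correlated with the other libraries at 0.829 to 0.865, whereas those correlated with each other at 0.955 to 0.976. Barcodes are also shared between libraries, with at most 12 per pair among cells of the table and 0 among the 3007 cells. In AML replicate 2, by contrast, the barcode list shares 1223 of the 1256 barcodes of PBS replicate 2. It also shares 1500 with PBS replicate 1, 2472 with PBS replicate 3, 624 with AML replicate 1 and 2408 with AML replicate 3.

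The HSC class is described here by 6 marker genes. It was assigned from an HSC gene signature scored in these same cells. High levels of such markers can follow from that assignment and are no independent check of the label. Plain CPM below is a gene's UMIs per 1000000, summed over the cells of a library. Procr, the endothelial protein C receptor, was at 43.2, 74.8 and 23.4 plain CPM in PBS, and AML replicates 1 and 3 had 16.9 (1 UMI) and 27.9. Hlf, a transcription factor that keeps HSCs quiescent, was at 259, 218 and 279 plain CPM in PBS and 288 and 303 in AML. Mecom, a transcription factor needed for HSC maintenance, was at 376, 436 and 401 in PBS and 813 and 469 in AML. These 3 genes were each highest in the HSC class, among the 4 classes of clusters 0 to 2, in 5 of 5 libraries. In PBS their HSC-class means were 47.1 ± 25.9, 252 ± 31.3 and 404 ± 29.9 plain CPM (SD, n = 3).

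The other 3 markers were also highest in the HSC class in PBS, with few UMIs for Slamf1 and Fgd5. Mllt3, a chromatin reader that supports HSC self-renewal, averaged 229 ± 41.8 plain CPM (SD, n = 3) in PBS HSC-class cells against 66.0 (MPP-2 cells), 55.4 (MPP-3 cells) and 60.6 (MPP-4 cells). Slamf1, which encodes the surface marker CD150, averaged 11.3 ± 3.73 plain CPM against 5.48, 0.539 and 0.389 in the same order. Fgd5, a guanine nucleotide exchange factor gene whose expression marks HSCs, averaged 11.4 ± 1.07 plain CPM against 3.41, 4.32 and 2.06. Slamf1 and Fgd5 had 0 UMIs in the 22 cells of AML replicate 1, where 3 UMIs would be 50.8 plain CPM, so their level there was not measurable at this depth. Genes that rise as HSCs become MPPs were lower in the class: Flt3, a receptor of lymphoid-primed progenitors, averaged 91.1 ± 23.9 plain CPM in these cells against 388 ± 47.2 in MPP-4 cells (SD, n = 3), and Cd48, absent from the surface of classical HSCs, averaged 51.2 ± 22.1 against 155 to 205 in the 3 MPP classes.

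**Figure D1:**
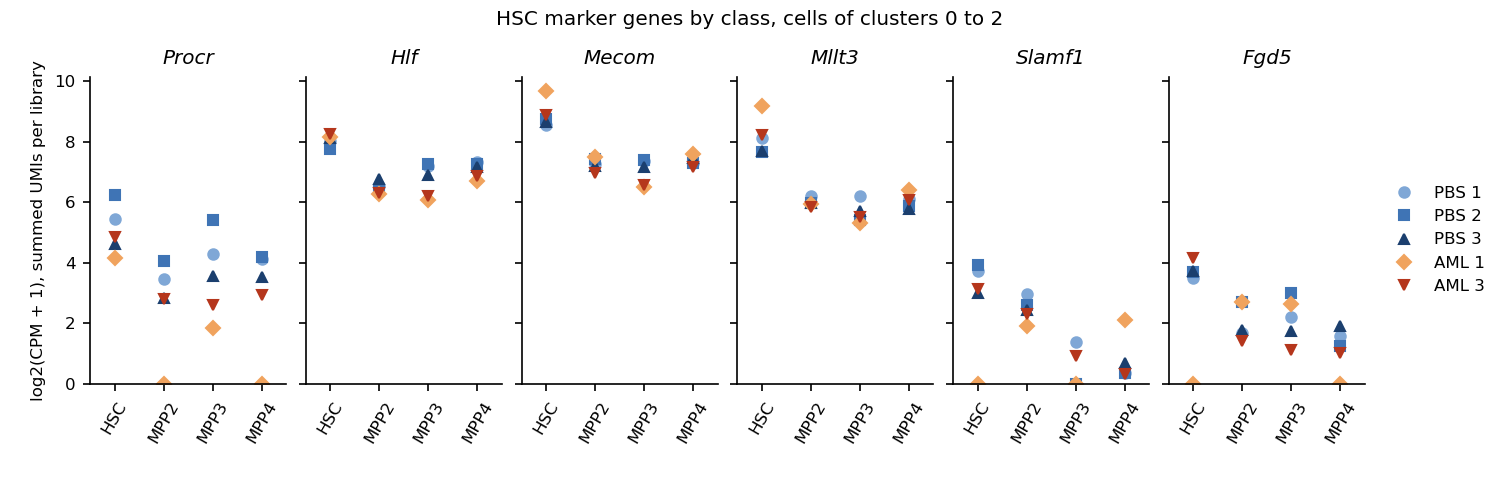
Levels of the 6 HSC marker genes in the 4 classes of cells of clusters 0 to 2, as log2(CPM + 1) of the UMIs summed per library; each point is 1 library. The HSC class is highest for Procr, Hlf, Mecom and Mllt3 in 5 of 5 libraries and for Slamf1 and Fgd5 in 4 of 5, where AML replicate 1 had 0 UMIs of both.

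The class was assigned by the authors' module scores, so its genes are described here without a test, and the assignment was narrow. For 1441 of the 3007 cells (47.9%) the HSC score led the next class by less than 0.05, a share of 72.7% in AML replicate 1 (16 of 22 cells) and 43.8% in AML replicate 3. Against the other cells of clusters 0 to 2, the genes with the largest ratio in every PBS library were led by Grb10, a growth factor receptor adaptor and imprinted gene, at 57.8 ± 12.5 against 7.77 ± 2.63 plain CPM (SD, n = 3). Dlg2, a scaffold protein gene, was at 78.6 ± 3.73 against 12.3 ± 1.25 plain CPM. Pdzk1ip1, also known as Map17 and a membrane protein gene used to report HSCs, was at 283 ± 23.4 against 63.8 ± 7.46. Prkg1, a cGMP-dependent kinase, was at 281 ± 17.8 against 98.6 ± 9.62. A further 15 of the 20 leading genes were Rora, Itsn1, Plxdc2, Mllt3, Tbxas1, Trpc6, Hacd4, Gng11, Samd12, Bex4, Uba7, Cavin3, Selenom, Eya2 and Csgalnact1.

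Genes that were lower than in the other cells were led by Dntt, the lymphoid enzyme TdT, at 15.6 ± 2.83 against 313 ± 87.9 plain CPM. The next 4 belong to mitosis: Ube2c, an anaphase ubiquitin-conjugating enzyme, was at 18.7 ± 3.71 against 293 ± 14.0, Birc5, the survivin gene, at 13.01 ± 1.64 against 131 ± 9.48, Nusap1, a spindle protein gene, at 9.33 ± 2.08 against 112 ± 8.02, and Prc1, a midzone protein gene, at 12.1 ± 4.79 against 115 ± 37.1 (SD, n = 3). In AML replicate 3 Ube2c was at 11.4 plain CPM in these cells and 234 in the others. AML replicate 1 was unlike the rest, with Ube2c at 136 plain CPM in these cells and 214 in the others.

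Most of the cells, 2334 (77.6%), lay in cluster 0, with 533 (17.7%) in cluster 1 and 140 (4.66%) in cluster 2. They made up 36.7% of all cells of cluster 0, 14.3% of cluster 1 and 3.75% of cluster 2. Within the class, the marker levels were highest in cluster 0: Mecom averaged 468 ± 39.4 plain CPM in cluster 0 against 230.2 ± 11.1 in cluster 1 and 229 ± 19.5 in cluster 2 (SD over PBS libraries, n = 3). Slamf1 averaged 14.2 ± 4.67, 3.58 ± 1.37 and 1.62 ± 2.81 plain CPM in the same order, while Flt3 averaged 70.5 ± 21.9, 126 ± 14.2 and 247 ± 160. Cluster 0 was led by Plcl1 (52.1 against 11.04 plain CPM in the rest of the class), Rora, Dlg2, Slc8a1 and Trim47. Cluster 1 was led by Cd48 (106 against 35.6), the cytotoxic granule gene Nkg7 (159 against 56.8), Tespa1, the immune receptor adaptor Tyrobp, and Plac8, a gene of myeloid-primed progenitors (608 against 309.9). Cluster 2 was led by the interferon-stimulated genes Ifit3 (157 against 2.80), Ifit3b (50.1 against 0.563), the interferon-induced chemokine gene Cxcl10 (52.4 against 1.14), the lymphoid gene Dntt (119.8 against 10.9) and Wfdc17 (599 against 68.9). Because clusters were formed from these same cells, these values are descriptions, and cluster sizes are not compared between groups.

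HSC-class cells of clusters 0 to 2 were a smaller share of the sorted cells in both AML libraries than in any PBS library, but the design cannot place this below the usual threshold. They made up 19.6%, 23.02% and 20.9% of the cells of PBS replicates 1, 2 and 3, against 3.17% of AML replicate 1 (22 of 693 cells, 95% exact Clopper-Pearson interval 2.00 to 4.77%) and 12.98% of AML replicate 3 (514 of 3959, 11.95 to 14.1%). The means were 21.2% ± 1.74 (SD, n = 3) and 8.08% ± 6.94 (SD, n = 2), a difference of -13.1 percentage points. Exact permutation of the library labels, with 10 arrangements, gave a two-sided p of 0.1, the smallest this design allows. The groups were also apart with cells of clusters 0 to 2 as the denominator (22.8%, 28.3% and 25.1% against 4.13% and 17.1%) and when only cells leading by at least 0.05 in score were counted (10.1%, 12.5% and 10.6% against 0.866% and 7.30%). Shares are of sorted and retained cells, so a loss of these cells and a gain of other cells cannot be told apart.

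Most cells of each library were called G1 by the deposited phase, and AML replicate 1 had the lowest share. Cells called S or G2M were 14.8%, 11.2% and 14.1% in PBS. AML replicate 1 had 40.9% (9 of 22 cells, interval 20.7 to 63.6%) and AML replicate 3 had 11.9% (61 of 514, interval 9.20 to 14.98%). The AML mean lay 13.05 points above the PBS mean of 13.3% ± 1.92 (SD, n = 3), with an exact two-sided permutation p of 0.3, and without AML replicate 1 the difference was -1.47 points. The UMIs of the G2M gene list behaved likewise, summing to 1638, 1422 and 1422 plain CPM in PBS against 4151 (245 UMIs) and 1510.4 in AML replicates 1 and 3. In the other cells of clusters 0 to 2, S or G2M calls were 44.5%, 41.7% and 44.6% in PBS against 87.9% in AML replicate 1 and 48.7% in AML replicate 3, so the higher share in AML replicate 1 was not limited to the HSC class. Phases are calls from the authors' scores and can move with depth and free RNA. With cells thinned to 2000 UMIs, 13.1%, 12.6% and 13.8% of PBS cells had at least 1 UMI of 5 G2M genes. AML replicates 1 and 3 had 59.1% (13 of 22 cells) and 13.8%. The phases were not called again at equal depth, and the part of free RNA was not tested.

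**Figure D2:**
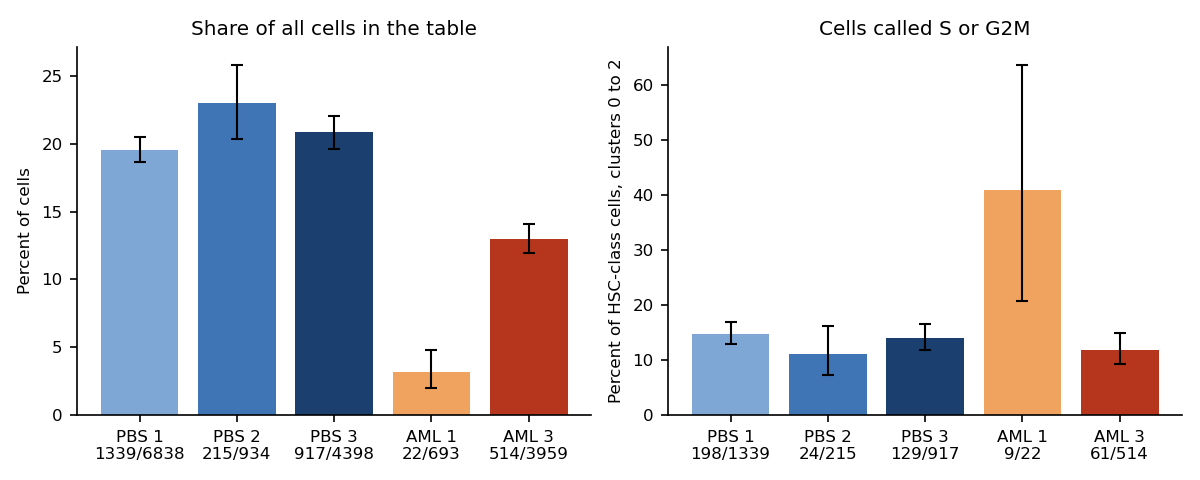
Left, HSC-class cells of clusters 0 to 2 as a percent of all cells of each library in the table; right, percent of these cells called S or G2M. Bars are single libraries, with counts below each bar and exact 95% intervals that cover counting error only; both AML libraries lie below 19.6% on the left, and only AML replicate 1 (40.9%) stands apart on the right.

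To ask which genes differed with leukemia, UMIs were summed over the cells of each library and tested with edgeR. Of 10507 genes tested, 12 were higher in AML (0.114%) and 3 lower (0.0286%) at a Benjamini-Hochberg adjusted p under 0.05. Of the 12, 7 belong to a list of 57 tested interferon-stimulated genes. The 12 were Ccl5, Cxcl10, Ifit3, Gm43305, Oas2, Irf7, Rnf213, Ms4a6c, Iigp1, Ifit1, Ifi27l2a and Isg15, and the 3 were the hemoglobin genes Hbb-bs, Hba-a1 and Hba-a2. At an unadjusted p under 0.05 there were 216 higher genes (2.06%) and 233 lower genes (2.22%). For 1143 genes (10.9%) both AML values exceeded all PBS values, and for 1733 (16.5%) both fell below them.

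The calls were few and depended on the libraries. Of the 15 called genes, 5, 12 and 8 were still called without PBS replicate 1, 2 or 3, 5 without AML replicate 1 and 0 without AML replicate 3, with 6, 15, 10, 7 and 2 calls in all in those fits. By DESeq2 and by limma-voom 0 genes passed, and 89 and 446 had p under 0.05 before adjustment.

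**Figure D3:**
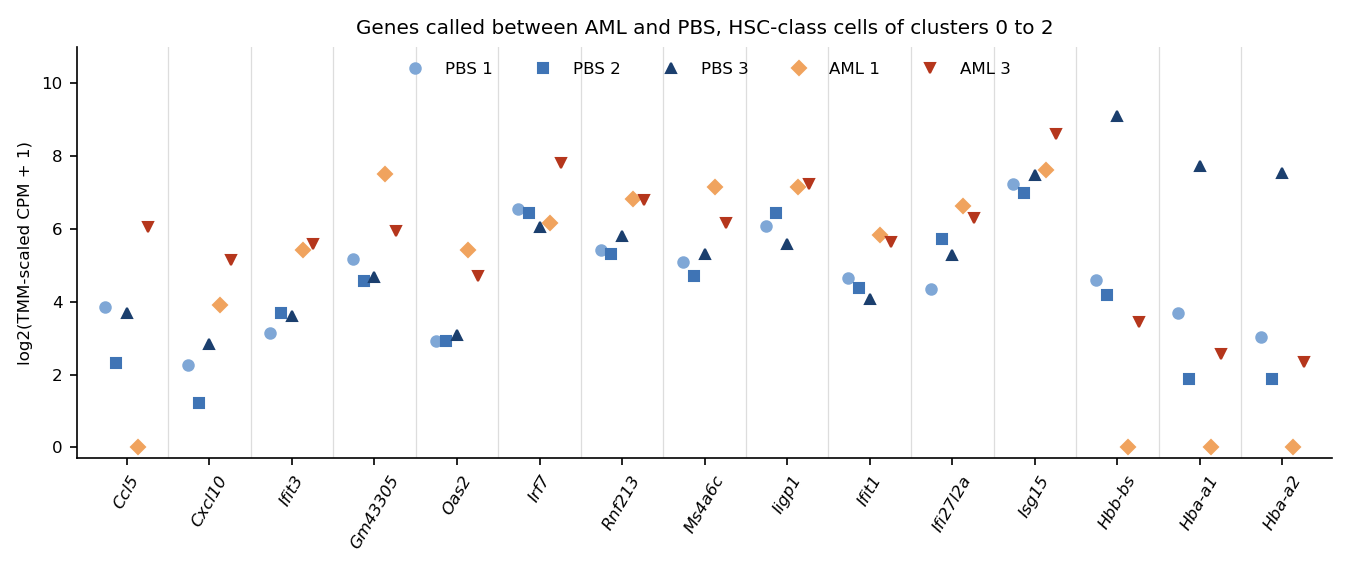
The 15 genes called by edgeR, as log2(TMM-scaled CPM + 1); each point is 1 library. Both AML libraries lie above all 3 PBS libraries for 10 of the 12 genes called higher, the exceptions being Ccl5 and Irf7, and PBS replicate 3 stands far above the other 4 libraries for the 3 hemoglobin genes.

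The interferon-stimulated genes are given here in CPM scaled by the TMM library size (TMM-scaled CPM), with the UMI count beside each value of AML replicate 1. Isg15 (ENSMUSG00000035692, chr4:156199424-156200818, minus strand), which encodes a ubiquitin-like protein conjugated to targets during antiviral responses, was at 151, 126 and 178 TMM-scaled CPM in PBS, while AML replicates 1 and 3 were at 196 (14 UMIs) and 389. The groups did not overlap, although AML replicate 1 was only slightly above PBS replicate 3. The log2 fold change was 1.11 ± 0.267 (SE; adjusted p 0.0222), it fell to 0.33 (adjusted p 0.788) without AML replicate 3, and it was called in 8 of 18 alternative fits. Irf7 (chr7:141262706-141266481, minus strand), the transcription factor that amplifies type I interferon production, was at 91.9, 85.1 and 65.3 in PBS, 70.1 (5 UMIs) in AML replicate 1 and 225 in AML replicate 3. Its groups overlapped, and the fold change of 1.22 ± 0.262 (adjusted p 0.00366) was carried by AML replicate 3, turning to -0.24 without it.

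Ifit3, Ifit1 and Oas2 belong to families that bind or sense viral RNA, and for these 3 the groups did not overlap, at low counts. Ifit3 (chr19:34583531-34588731, plus strand) was at 7.87, 12.0 and 11.2 TMM-scaled CPM in PBS, 42.0 (3 UMIs, all in 1 cell) in AML replicate 1 and 46.9 in AML replicate 3. Its log2 fold change was 2.22 ± 0.333 (adjusted p 4.76e-08), with reads that could be shared with the near-identical Ifit3b. Ifit1 (chr19:34640871-34650009, plus strand) was at 24.0, 19.9 and 15.98 in PBS and 56.1 (4 UMIs) and 49.2 in AML, a change of 1.30 ± 0.302 (adjusted p 0.0140). Oas2 (chr5:120730333-120749853, minus strand) was at 6.59, 6.65 and 7.48 TMM-scaled CPM in PBS, against 42.0 (3 UMIs) and 25.3 in AML. Its change was 1.94 ± 0.412 (adjusted p 0.00320).

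Rnf213, Iigp1 and Ifi27l2a also lay above every PBS library in both AML libraries. Rnf213 (chr11:119393100-119487418, plus strand), a large ubiquitin ligase with antimicrobial activity, was at 41.9, 38.6 and 55.1 TMM-scaled CPM in PBS and 112 (8 UMIs) and 109 in AML. The AML libraries were close to each other, and the change was 1.27 ± 0.279 (adjusted p 0.00545). Iigp1, an interferon-inducible GTPase, was at 66.8, 85.1 and 46.9 in PBS and 140.1 (10 UMIs) and 149.7 in AML, with a change of 1.17 ± 0.271 (adjusted p 0.0132). Ifi27l2a, a small interferon-induced membrane protein gene, ranged from 19.6 to 51.9 in PBS and was at 98.1 (7 UMIs) and 77.6 in AML, a change of 1.21 ± 0.288 (adjusted p 0.0195). Each of these 3 was called in 8 or 9 of the 18 alternative fits and kept its direction in all 18.

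The start-site sequences of 4 of these genes are shown because they hold a short motif tied to interferon responses, and they were picked for it among the genes called higher. The motif searched was GAAANNGAAA on either strand (TTTCNNTTTC when read from the other strand), a core of the interferon-stimulated response element, within the 250 bases before the start in RefSeq promoters of GRCm38.p6. Capitals mark each match and any overlap between matches.
Isg15, chr4:156200860-156200911, minus strand, 3 overlapping matches ending 56 bases before the start: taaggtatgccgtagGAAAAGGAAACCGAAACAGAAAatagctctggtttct
Ifit1, chr19:34640770-34640828, plus strand, 2 matches ending 75 bases before the start: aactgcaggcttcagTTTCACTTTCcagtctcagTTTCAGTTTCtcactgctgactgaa
Ifit3, chr19:34583392-34583431, plus strand, the nearer of 2 matches, ending 112 bases before the start: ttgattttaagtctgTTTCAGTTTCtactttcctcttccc
Cxcl10, chr5:92349078-92349117, minus strand, 1 match ending 203 bases before the start: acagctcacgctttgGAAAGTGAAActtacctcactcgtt
Of the 12 genes called higher, 8 had a promoter in the table and these 4 held the motif, while Gm43305, Irf7, Rnf213 and Ms4a6c held none. The motif was in 936 of 27025 genes with a promoter in the table (3.46%), in 283 of 8334 tested genes (3.40%) and in 15 of 44 tested interferon-stimulated genes (34.1%). A match is a description of the letters, not of binding.

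Of the remaining higher genes, Cxcl10 and Ccl5 encode chemokines that attract T cells. Cxcl10 (chr5:92346638-92348889, minus strand) was at 3.83, 1.33 and 6.12 TMM-scaled CPM in PBS, 14.0 (1 UMI) in AML replicate 1 and 34.3 in AML replicate 3, a change of 2.96 ± 0.416 (adjusted p 2.33e-09) that was 1.74 (adjusted p 0.772) without AML replicate 3. In AML replicate 3 its 76 UMIs lay in 16 of 514 cells, with 27 in a single cell. Ccl5 (chr11:83525778-83530518, minus strand) was at 13.4, 3.99 and 11.9 in PBS, 0 in AML replicate 1 and 65.4 in AML replicate 3, a change of 2.42 ± 0.306 (adjusted p 6.31e-12) with overlapping groups. One cell of AML replicate 3 held 75 of its 145 Ccl5 UMIs. That cell had 3235 UMIs in all and 16 UMIs of the HSC markers, and its T and NK cell marker UMIs were Ccl5 alone (75 of 75). The T cell gene Cd3e had 0 UMIs in all 5 libraries, which in AML replicate 3 allows a share of up to 0.584% of cells with a Cd3e UMI, and says nothing of cells that express it below capture.

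Ms4a6c and Gm43305 complete the higher genes. Ms4a6c, a tetraspanning membrane protein gene of monocytic cells, was at 33.2, 25.3 and 38.7 TMM-scaled CPM in PBS and 140.1 (10 UMIs) and 70.8 in AML, a change of 1.29 ± 0.290 (adjusted p 0.00857; 2.05 with adjusted p 0.324 without AML replicate 3), and shares sequence with other Ms4a genes. Gm43305, annotated as a processed transcript at chr14:54292443-54297456 on the minus strand, was at 34.9, 22.6 and 24.5 in PBS and 182 (13 UMIs) and 60.4 in AML. Its change was 1.45 ± 0.295 (adjusted p 0.00132), and 8 of the 13 UMIs in AML replicate 1 came from 1 cell. Without AML replicate 1 it was at 1.10 (adjusted p 0.376) and without AML replicate 3 at 2.66 (adjusted p 0.121).

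The 3 lower genes were hemoglobins, and most of their UMIs lay in a single cell. Hbb-bs, a beta-globin gene, was at 23.2, 17.3 and 553 TMM-scaled CPM in PBS, 0 in AML replicate 1 and 9.92 in AML replicate 3, with a fitted change of -4.39 ± 0.419. In PBS replicate 3, 1 cell of cluster 0 with 8944 UMIs held 1553 of 1626 Hbb-bs UMIs, 573 of 621 Hba-a1 UMIs and 524 of 547 Hba-a2 UMIs. Without that cell the plain CPM of PBS replicate 3 went from 483 to 21.7 for Hbb-bs, from 184 to 14.3 for Hba-a1 and from 162 to 6.84 for Hba-a2. With it and the Ccl5-rich cell of AML replicate 3 left out, a choice made after seeing the data, 11 genes were called higher and 0 lower, with 452 at an unadjusted p under 0.05. Those 11 were the same genes as before without Ccl5 (1.43, adjusted p 0.0623), and Hbb-bs was then at -1.23 (adjusted p 0.641), Hba-a1 at -1.23 (0.992) and Hba-a2 at -0.71 (0.992).

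Beyond the called genes, most of the 57 tested interferon-stimulated genes lay higher in AML. In this list 7 genes were called higher and 0 lower, 32 were higher and 0 lower at an unadjusted p under 0.05 (against 2.06% and 2.22% of all genes), and 52 had a positive log2 fold change (91.2%, against 47.0% of all genes). Their median change was 0.64, against -0.03 over all genes. In 30 of the 57 both AML values exceeded all PBS values (52.6%, against 10.9% of all genes). The list summed to 6479, 7302 and 6241 plain CPM in PBS and to 8250 (487 UMIs) and 9243 in AML. These sums lack the TMM scaling, whose factors were 1.01, 0.906 and 0.879 in PBS and 1.22 and 1.02 in AML. Divided by these factors, AML replicate 1 would lie below PBS replicates 2 and 3, and AML replicate 3 above every PBS library. The remaining 5 had negative values, and these did not pass the test.

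Counted per cell, the shift was seen in AML replicate 3. With each cell thinned to 2000 UMIs, the median cell held 12, 13 and 12 UMIs of the list in PBS, 12.5 and 17 in AML replicates 1 and 3. The upper quartile was 16, 17 and 16 in PBS and 17 and 23 in AML. After shallower cells were left out, 1299, 215 and 886 cells remained in PBS and 22 and 514 in AML.

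Interferon gamma response genes also had a positive median, whereas the medians of antigen presentation and NF-kB genes were close to that of all genes. Of 21 tested interferon gamma response genes, 2 were called higher (Cxcl10 and Iigp1, against 0.114% of all genes), 5 were higher at an unadjusted p under 0.05 (against 2.06% of all genes) and the median was 0.57. Of 18 MHC class I and immunoproteasome genes, 0 were called and the median was -0.04. At an unadjusted p under 0.05, 3 were higher and 0 lower (against 2.06% and 2.22% of all genes). The 3 were Tap1 (0.81), Tapbp (0.72, with overlapping groups) and Nlrc5 (0.65). Psmb8, an immunoproteasome subunit, was at -0.55 ± 0.305 and B2m, the class I light chain, at -0.37 ± 0.338 on the log2 scale. Of 8 MHC class II genes, 0 were called, with a median of -0.01. Cd74, the invariant chain, was at 0.84 ± 0.269 (adjusted p 0.392), at 1.31 without PBS replicate 2 (adjusted p 0.0134) and at -0.62 without AML replicate 3.

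Of 17 NF-kB genes, 0 were called and the median was 0.12. At an unadjusted p under 0.05, 2 were higher and 1 lower (against 2.06% and 2.22% of all genes). Nfkbia, the inhibitor that NF-kB itself induces, was at 0.50 ± 0.272 and the chemokine gene Ccl4 at -0.74 ± 0.295. The subunit gene Nfkb1 was at 88.1, 83.8 and 94.5 TMM-scaled CPM in PBS and 112 (8 UMIs) and 108 in AML, a change of 0.29 ± 0.282 (adjusted p 0.991). Nfkb2, with 21, 7 and 12 UMIs in PBS against 0 and 19, was too low to be tested. Irf8, a myeloid transcription factor, numbered 18, 6 and 15 UMIs against 2 and 16 and did not pass (0.95 ± 0.619, adjusted p 0.991). Of 16 cytokine and innate receptor genes, 0 were called and the median was 0.10.

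**Figure D4:**
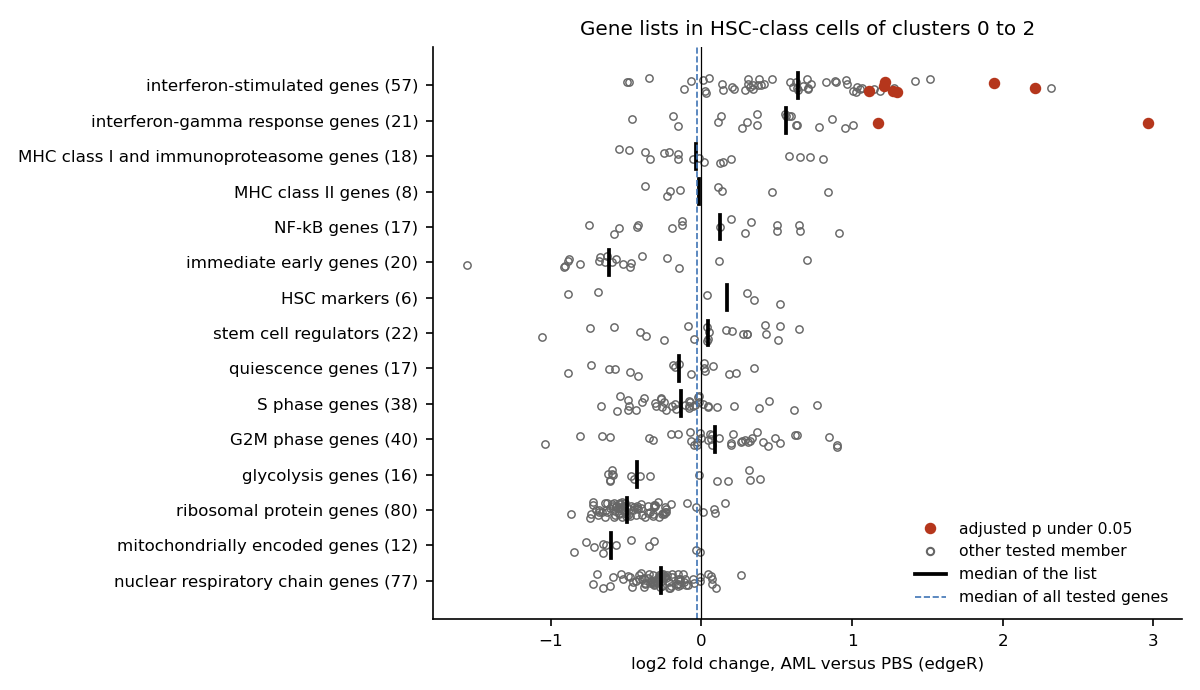
Log2 fold changes between AML and PBS by edgeR for the tested members of 15 gene lists, with the number tested in brackets; filled points passed the adjusted threshold, black bars are list medians and the dashed line is the median of all genes (-0.03). Interferon-stimulated genes have a median of 0.64 with 7 filled points, whereas the medians of immediate early, ribosomal protein and mitochondrially encoded genes lie at -0.61, -0.50 and -0.60 with none.

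In AML replicate 3 the summed interferon-stimulated list, Isg15, Irf7, Ifit3, Rnf213 and Ifit1 were above every PBS library in all 3 clusters, while Cxcl10, Iigp1 and Oas2 were not. Isg15 was at 117, 98.4 and 130.4 plain CPM in cluster 0 of PBS, against 192 (10 UMIs) and 353 in AML replicates 1 and 3. In cluster 1 it was at 133, 64.4 and 118 in PBS and 279.7 in AML replicate 3, and AML replicate 1 had 0 cells there. In cluster 2, the cluster led by interferon-stimulated genes, it was at 818, 706 and 715 in PBS (62, 8 and 44 cells) and 1532 in AML replicate 3 (23 cells). AML replicate 1, with 3 cells there, was at 573 (4 UMIs), below every PBS library. Of the exceptions, Cxcl10 had 0 plain CPM in cluster 1 of AML replicate 3 against 0.989, 2.58 and 0 in PBS. Iigp1 was at 42.6 in that cluster against 25.7, 56.7 and 10.5, and Oas2 at 19.9 in cluster 2 against 34.1, 31.4 and 12.5.

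Irf7 was at 82.5, 64.7 and 51.1 plain CPM in cluster 0 of PBS, 96.1 (5 UMIs) in AML replicate 1 and 204 in AML replicate 3. In cluster 2 it was at 419, 408 and 213 in PBS and 885 in AML replicate 3, with 0 UMIs in the 3 cells of AML replicate 1. The summed interferon-stimulated list was at 6339, 7121 and 6247 plain CPM in cluster 0 of PBS, 7609 in AML replicate 1 and 8956 in AML replicate 3. With the TMM factors of the whole class, AML replicate 1 would not lie above any PBS library here, and AML replicate 3 still would. Ifit3 was concentrated in cluster 2, which held 81.1%, 55.6% and 81.8% of its UMIs in PBS and 63.5% in AML replicate 3. With cells of cluster 0 alone, edgeR called 10 genes higher and 4 lower, 13 of them among the 15.

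**Figure D5:**
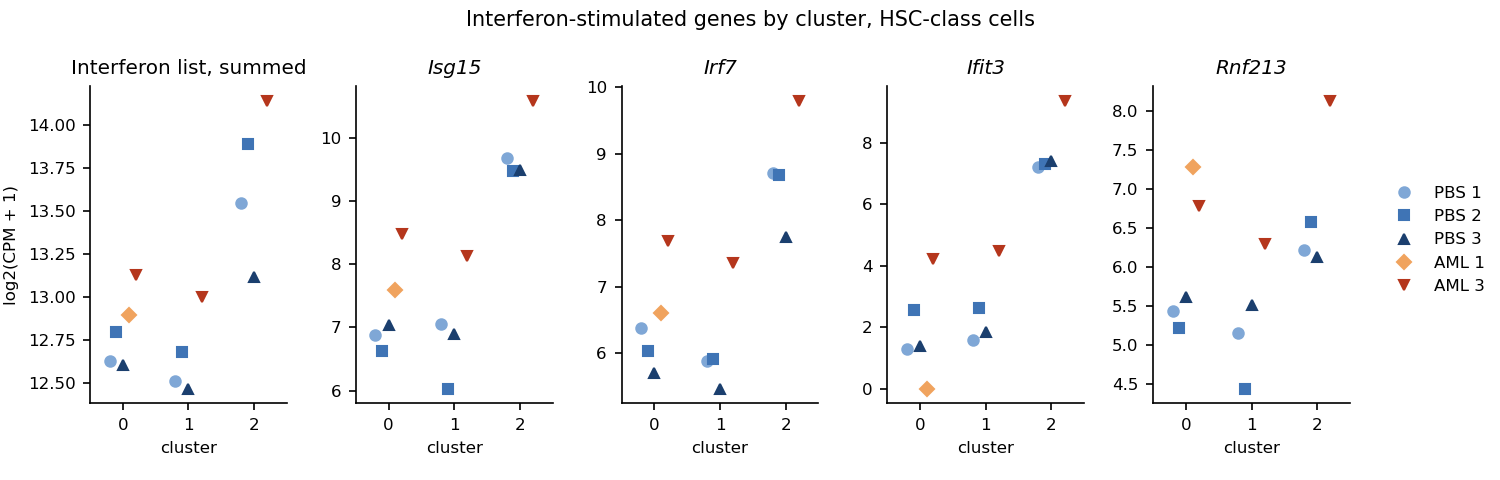
Summed interferon-stimulated genes and 4 single genes by cluster within the HSC class, as log2(CPM + 1) of summed UMIs; each point is a library with at least 5 cells of that cluster. AML replicate 3 (down-pointing triangles) lies above the 3 PBS libraries in every cluster and panel, and Isg15 in cluster 2 reaches 1532 CPM there against 706 to 818 in PBS.

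Stem cell genes had 0 calls, in cells that had been kept for a high HSC score, so a change in such genes within the class is limited by the selection itself. Among the 6 HSC markers, Procr was at -0.89 ± 0.328 (adjusted p 0.770; -0.42 without PBS replicate 2 and -1.84 without AML replicate 3), Hlf at 0.04 ± 0.285, Mecom at 0.30 ± 0.297, Mllt3 at 0.52 ± 0.287, Slamf1 at -0.69 ± 0.504 and Fgd5 at 0.35 ± 0.414 on the log2 scale. Over 18 alternative fits Mecom ranged from 0.075 to 0.58, Mllt3 from 0.26 to 0.91 and Slamf1 from -7.77 to -0.185, with no change of sign. Of 22 stem cell regulators, 0 were called and the median was 0.05. Lmo2, a transcriptional adaptor needed for HSCs, was at 994, 1229 and 964 TMM-scaled CPM in PBS and 533 and 835 in AML (-0.58 ± 0.320, adjusted p 0.991), and Msi2, an RNA-binding regulator of self-renewal, at 0.30 ± 0.294. Of 21 surface and niche genes, 0 were called, with a median of -0.01. Ly6a, which encodes the sort marker Sca1 and is itself interferon-inducible, was at 155, 340 and 178 TMM-scaled CPM in PBS and 154 (11 UMIs) and 353 in AML (0.40 ± 0.275).

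Quiescence and cell cycle genes likewise had 0 calls. Of 17 quiescence genes, 2 were lower at an unadjusted p under 0.05 (against 2.22% of all genes) and the median was -0.15. Pdzk1ip1 was at 307, 314 and 298 TMM-scaled CPM in PBS and 70.1 (5 UMIs) and 247 in AML, a change of -0.61 ± 0.289 (adjusted p 0.991) with groups that did not overlap. Of 9 G1 cyclins and CDKs, Cdk6, a kinase that drives HSC exit from quiescence, was at 252, 174 and 270 in PBS and 350 and 366 in AML (0.63 ± 0.280, adjusted p 0.991), and Cdk4 at -0.61 ± 0.293. The medians of 38 S phase and 40 G2M genes were -0.14 and 0.09. Pcna, the replication clamp, was at -0.39 ± 0.294.

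Immediate early genes, which respond within minutes to stress, handling or growth factors, had a negative median and 0 calls. Of 20 tested, 10 were lower (against 2.22% of all genes) and 0 higher at an unadjusted p under 0.05, and the median was -0.61. In 3 of the 20 (15%) both AML values were below all PBS values, against 16.5% of all genes. Fos was at 733, 404 and 188 TMM-scaled CPM in PBS and 350 and 189 in AML, so that PBS replicate 3 was close to AML replicate 3 and PBS replicate 2 to AML replicate 1 (-0.91 ± 0.316, adjusted p 0.596). Ier2 was at 1390, 855 and 692 in PBS and 406 and 610 in AML (-0.88 ± 0.321, adjusted p 0.770), and Junb at -0.80 ± 0.296. The list summed to 5029, 3304 and 1965 plain CPM in PBS and 2355 and 2464 in AML, a spread among PBS libraries larger than the difference between the groups.

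Genes of energy metabolism and translation had negative medians and 0 calls. The median was -0.50 for 80 ribosomal protein genes (28 with both AML libraries below all PBS libraries, 35% against 16.5% of all genes), -0.60 for 12 mitochondrially encoded genes and -0.43 for 16 glycolysis genes. On the plain scale the ribosomal list summed to 270196, 344995 and 323448 CPM in PBS and 264540 and 288181 in AML, and the groups overlapped. The mitochondrially encoded genes mt-Cytb and mt-Co3 were at -0.71 ± 0.365 and -0.77 ± 0.347. Gapdh was at -0.59 ± 0.340 and Ldha, lactate dehydrogenase, at -0.62 ± 0.296. For 77 nuclear respiratory chain genes the median was -0.27, yet the list summed to 24236, 24037 and 29682 plain CPM in PBS and to 30545 and 24024 in AML, so the AML sums were not both lower on this scale, which lacks the TMM scaling behind the median. Of 26 MYC target and ribosome biogenesis genes and 13 chaperone genes, 0 were called, with medians of -0.10 and -0.06. Npm1, a nucleolar chaperone, was at -0.37 ± 0.328.

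Lineage priming genes were called only for Ms4a6c. Of 17 myeloid priming genes, 1 was called higher (against 0.114% of all genes), 5 were higher and 2 lower at an unadjusted p under 0.05 (against 2.06% and 2.22% of all genes), and the median was 0.25. Plac8 was at 0.42 ± 0.290 and Prtn3, the protease of early granulocytes, at -0.38 ± 0.308. Of 11 lymphoid, 15 megakaryocyte and 4 erythroid genes, 0 were called, with medians of 0.21, -0.20 and -0.12. Car2, a carbonic anhydrase of red cell precursors, was at -0.65 ± 0.322.

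Markers of other cell types were summed in the same way. T and NK cell markers summed to 109, 74.8 and 119 plain CPM in PBS and 119 (7 UMIs) and 173 in AML, with 5 of 13 markers at 0 in every library and 1 of 3 tested genes called (Ccl5). Neutrophil markers summed to at most 10.98 plain CPM, with 0 of 10 tested, and monocyte and macrophage markers to at most 48.1, with 0 of 4 called. B and plasma cell markers summed to 132 to 310.4 plain CPM in PBS and 102 and 250.4 in AML, with 0 of 4 called. Hemoglobin and late erythroid markers summed to 132, 219 and 983 in PBS and 84.7 and 107 in AML, with 3 of 5 called lower as described. Mast cell and stromal lists had 0 of 2 genes called each and summed to at most 33.9 and 102 plain CPM. Whether cells of these types contribute to the called genes was not tested.

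Whether the AML effect differed between these cells and the other cells of clusters 0 to 2 was tested as an interaction in edgeR, with both sums of each library in 1 fit. Of 12036 genes, 20 had a higher effect in the HSC class (0.166%) and 20 a lower one (0.166%) after adjustment, out of 1076 with p under 0.05 before it. The class was assigned from a gene signature scored in these same cells, so a difference in a gene tied to that signature can follow from the assignment. The signature's genes are not listed in the sources used here. Hlf and Mecom are markers of the class and Plxdc2 is one of its 20 leading genes, of which 19 had a positive difference (46.7% of all genes), so their values below are no independent evidence. Limma-voom with library as a random effect called 0 genes, against 589 with p under 0.05 before adjustment, and the number of edgeR calls was 11, 16 and 19 without PBS replicate 1, 2 or 3, 44 without AML replicate 1 and 105 without AML replicate 3.

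The 5 genes with the lowest p were Ccl5, Hbb-bt, Plxdc2, C77080 and Hlf. Ccl5 had a difference of effects of 1.49 ± 0.210 (log2, SE; adjusted p 1.69e-08), which includes the cell described above. Hlf was at 242, 225 and 297 TMM-scaled CPM of the joint fit in PBS HSC-class cells and 222 and 277 in AML, while in the other cells it was at 133, 140.4 and 145 in PBS and 88.6 and 98.8 in AML. The difference of 0.59 ± 0.116 (adjusted p 9.16e-04) thus came with lower levels in the other cells of AML. Plxdc2, a transmembrane protein gene among the 20 leading genes, had a difference of 0.89 ± 0.175 (adjusted p 9.16e-04), and was at 104, 79.2 and 85.3 in PBS HSC-class cells and 91.3 and 118 in AML, against 25.6, 24.3 and 22.3 and then 25.3 and 15.8 in the other cells. C77080 had a difference of 0.86 ± 0.168 and the beta-globin gene Hbb-bt of -1.07 ± 0.184 (adjusted p 9.16e-04 and 3.96e-05). The hemoglobin-rich cell of PBS replicate 3, with 2889 UMIs of the hemoglobin and late erythroid list, is part of the Hbb-bt value, and without that library the difference was -0.76 (adjusted p 0.0322). Mecom was also among the 20 higher genes, at 0.47 ± 0.106 (adjusted p 0.00631).

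No interferon-stimulated gene passed this interaction test. Of 57 tested, 0 were called higher or lower and the median difference was 0.19, against -0.03 over all genes. Isg15 had a log2 fold change of 1.11 in the HSC class and 1.10 in the other cells, with a difference of 0.06 ± 0.112 (adjusted p 0.944). Changes within each set of cells come from separate fits, so their gap need not equal the difference from the joint fit. Irf7 was at 1.22 in the HSC class and 0.60 in the other cells (difference 0.38 ± 0.138, adjusted p 0.256), and Cxcl10 at 2.96 and 1.90 (difference 0.73 ± 0.359, adjusted p 0.526). In the other cells 0 interferon-stimulated genes were called and their median change was 0.37. A call in one set of cells and not in the other is therefore not shown here to be a difference between them.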

How the data were processed

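The deposited matrices hold raw UMI counts for each gene and barcode, made by the authors with Cell Ranger 7.0.1 on GRCm38, and the table of single cells with Seurat 4.3.0 under R 4.2.2, per the submitters' processing notes. Per the file headers that table also gives the percent of mitochondrial UMIs and the authors' module score for each class and phase. No source used here gives the cell filters or the treatment of doublets. Another 9 columns were not used. The members and gene lists were chosen with earlier results of these data known.

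Counts were summed per library over HSC-class cells of clusters 0 to 2 in libraries with at least 10 such cells, and tested with edgeR 4.0.16 under R 4.3.3 (TMM, filterByExpr, quasi-likelihood F test, Benjamini-Hochberg adjustment, threshold 0.05). The common biological coefficient of variation was 18.0%, and 1 common quasi-likelihood spread was used for all genes. The interaction fit used 1 term per library. Shares were compared by exact permutation of libraries, with Clopper-Pearson intervals at 95%, which cover counting error only. Leading genes needed a mean of 50 CPM, and ratios used CPM + 1. Genes named were the HSC markers, 6 genes chosen from the study, all called genes, up to 4 abundant members per list, the 20 leading higher and 5 leading lower genes, 5 per cluster and the 5 lowest p of the interaction, and some genes that meet this rule are not reported here. Gene positions are from GENCODE on GRCm38 and promoters from RefSeq.

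Alternatives were DESeq2 1.42.0, limma-voom (limma 3.58.1), RLE size factors, no filter, a replicate block, each library left out, other choices of cells, thinning to 2000 UMIs, and 12 barcodes of AML replicate 2 added. On simulated data for the comparison of AML with PBS over 10507 genes, 46 of 100 genes changed 2-fold and 98 of 100 changed 4-fold were recovered, with 4 false calls. Changes were simulated in more abundant genes only, with the same spread given to every gene. These rates do not cover low-count genes such as Cxcl10, Oas2, Ccl5 and Ifit3, or UMIs massed in single cells. The replicate numbers could be compared in 2 pairs only, whose deviations from the group means correlated at -0.05 and -0.06 over 2371 genes. With 2 AML libraries the AML deviations are exact opposites, so swapped partners gave 0.05 and 0.06. This check cannot show or exclude a pairing.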

Additional observations from a re-analysis of the deposited data

Results flagged for a closer look

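The interaction test called 40 genes whose AML effect differed between HSC-class cells and the other cells of clusters 0 to 2, and the 5 with the lowest p are given here. The difference of log2 effects was 1.49 for Ccl5, -1.07 for Hbb-bt, 0.89 for Plxdc2, 0.86 for C77080 and 0.59 for Hlf. Of 8 alternative fits, Ccl5, Hbb-bt and Plxdc2 were each called in 6 and C77080 and Hlf in 4. Hlf is a marker of the class and Plxdc2 one of its leading genes, so their differences are not independent of how cells were assigned to the class.

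AML replicate 2 has 0 cells in the table, and 106 of its barcodes had at least 1000 genes and at most 10% mitochondrial UMIs. A nearest-class assignment put 12 of them, with 25339 UMIs, among HSC-class cells of clusters 0 to 2. In these barcodes Isg15 was at 434 plain CPM (11 UMIs) and Rnf213 at 197 plain CPM (5 UMIs), above every PBS library. In these 12 barcodes 1 UMI is worth 39.5 CPM, and Ccl5, Cxcl10, Ifit3 and Oas2 had 0 UMIs. With the 12 barcodes added as a library, Isg15 (adjusted p 0.0849), Iigp1 (0.0794) and Ifi27l2a (0.0794) no longer passed edgeR's test. Of the 12 barcodes, 6 also occur in another library and 1 is a cell of another library in the table. The 12 therefore cannot be taken as a separate AML sample. In held-out cells of PBS replicate 3 the same assignment recovered 761 of 917 members and assigned 1331 cells in all.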

How the results depend on the processing

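The count of 15 called genes changed by more than 1.5 times in some fits: DESeq2 and limma-voom called 0, a score lead of at least 0.05 gave 6 (AML replicate 1 then had too few cells), thinning gave 7 and leaving out the 5% of cells with the most UMIs gave 8. Leaving out single libraries gave 2 to 15 calls, and a lone AML library was then assumed to vary like the PBS group. The labels give no pairing beyond replicate numbers, and with the replicate block there were 12 calls, 9 of them among the 15. For the interaction, 40 calls became 84 with no filter and 0 with limma-voom, and 11 to 105 with single libraries left out. The difference in S or G2M calls ranged from -1.47 to 27.6 points and that in shares from -18.0 to -8.17 points over left-out libraries. Signs turned for Hlf (-0.10 with the block, -0.12 with AML replicate 2 added, -0.23 to 0.17 over left-out libraries) and Fgd5 (-0.042 with limma-voom). Over left-out libraries, with the lowest value of each without AML replicate 3, the ranges were -7.62 to 2.70 for Ccl5, -0.24 to 1.48 for Irf7, -7.82 to 0.46 for Fgd5, -0.56 to 0.81 for Ly6a, -0.62 to 1.31 for Cd74 and -0.48 to 0.71 for Nfkbia, and in the interaction -10.8 to 2.04 for Ccl5 and -0.13 to 0.99 for Plxdc2. The causes were not tested. Of 932 alternative values, 780 kept direction and side of the threshold or, for counts of genes, stayed within 1.5 times. Genes not called at first count as kept when they stay uncalled with the same sign, so this total says little about the called genes. Among the called genes, Ms4a6c was called in 7 of 18 alternative fits, Isg15, Ifit1 and Iigp1 in 8 of 18 and Cxcl10 in 15 of 18.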
